A study of Mus musculus with 11 samples.

Results

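The voltage-gated sodium channels of the dorsal root ganglion (DRG) were described here through 9 genes, taken by symbol from the 36670 genes of the deposited expression table. They comprise 6 alpha subunits (Scn1a, Scn7a, Scn8a, Scn9a, Scn10a and Scn11a) and 3 beta subunits (Scn2b, Scn3b and Scn4b), and each symbol matched a single row. Poly(A) RNA from mouse DRG had been sequenced in 11 libraries. The 3 wild-type (WT) control libraries and 3 WT libraries taken 4 weeks after paclitaxel (PTX), a chemotherapy drug used to produce neuropathic pain, were compared with 3 control and 2 PTX libraries from animals labelled Gpr37L1 KO. These carried a germline knockout of Gpr37l1, an orphan receptor gene of satellite glia, so the gene was missing from all their cells. Library 3 of each group was from a female and the others were from males, and sex and that library number cannot be told apart. The KO PTX libraries are numbered 2 and 3 after their descriptions, while their titles number them 1 and 2. The replicate block and the pairing below use the description numbers. The labels do not say whether a library held 1 animal or several, and p-values then measure the spread between these libraries.

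A sodium channel alpha subunit is a single long protein whose 4 repeated domains close around a pore, open when the membrane depolarizes and carry the rising phase of the action potential. Beta subunits are small membrane proteins with an immunoglobulin-like fold that bind the alpha subunits and set their gating and surface level. In sensory neurons Scn9a encodes Nav1.7, which amplifies small depolarizations in nociceptors, Scn10a encodes Nav1.8, which carries most of the nociceptor action potential, and Scn11a encodes Nav1.9, a persistent current near the resting potential. Scn1a (Nav1.1) and Scn8a (Nav1.6) serve larger myelinated neurons, Nav1.6 being the channel of nodes of Ranvier. Scn7a encodes Nax, a relative that does not open with voltage and has been linked to sodium sensing, with transcripts known from Schwann cells, other glia and some neurons.

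Tetrodotoxin, the pufferfish toxin, divides these channels, and a residue beside the selectivity filter of the first domain is known to decide sensitivity. The reference coding sequence at that position is shown for 4 of the genes because the shares below are formed by this division. Each stretch holds 33 bases (11 codons, GRCm38, GENCODE M21, coding strand), and the capitals mark the codon that follows the filter aspartate.

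Scn10a: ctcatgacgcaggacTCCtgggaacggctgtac

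Scn11a: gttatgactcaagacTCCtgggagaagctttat

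Scn8a: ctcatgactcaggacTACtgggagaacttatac

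Scn9a: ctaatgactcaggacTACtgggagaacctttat

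Scn10a, on the minus strand at chr9:119666372-119666404, and Scn11a, on the minus strand at chr9:119805665-119805697, both read TCC (serine). Scn8a, on the plus strand at chr15:100971623-100971655, and Scn9a, on the minus strand at chr2:66548986-66549018, read TAC (tyrosine). Each stretch lay inside a single coding exon. Aromatic residues there are known from the tetrodotoxin-sensitive channels and serine from the resistant pair. The pattern used to find the position (glutamine, aspartate, any residue, tryptophan, glutamate) had no match in the translated Scn7a transcript.

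The genes sit in a few clusters. On chromosome 2, Scn1a (66270778 to 66440814), Scn9a (66480080 to 66634952) and Scn7a (66673425 to 66784914) follow each other on the minus strand with gaps of 39.27 and 38.47 kb. On chromosome 9, Scn10a (119608456 to 119719322) and Scn11a lie 34.44 kb apart on the minus strand. Scn2b and Scn4b lie 8.324 kb apart on the plus strand of the same chromosome. The antisense gene Gm13629 overlapped 180 exonic bases of Scn9a, 1.409% of its summed exon length, and the counting strand is not given in the sources used here.

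Levels differed far more between genes than between groups. FPKM (fragments scaled by transcript length and sequencing depth, so that genes of different length can be set side by side) averaged 97.3 ± 8.12 for Scn10a and 95.9 ± 8.89 for Scn11a over all libraries (SD, n = 11). Next came Scn4b at 70.5 ± 8.07 and Scn7a at 53.8 ± 6.23. Scn9a averaged 25.6 ± 3.53, Scn3b 19.8 ± 1.69 and Scn2b 12.8 ± 2.65 FPKM. Scn8a, at 9.12 ± 0.344, and Scn1a, at 8.06 ± 1.14, were the lowest of the 9. The Scn10a level exceeded 97.7% of the 15087 genes that averaged at least 0.5 FPKM, and the Scn1a level exceeded 64.4% of them.

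The first neighbours in this order did not differ beyond their spread. Scn10a was above Scn11a in 6 of 11 libraries, with a mean log2 ratio of FPKM of 0.02 ± 0.12 (SD). Scn9a was above Scn3b (0.36 ± 0.18) and Scn2b above Scn8a (0.46 ± 0.33) in 10 of 11 libraries each. The other neighbours kept their order in all 11 libraries, among them Scn11a over Scn4b, Scn4b over Scn7a and Scn7a over Scn9a. The lowest neighbours, Scn8a and Scn1a, kept it by a mean log2 ratio of 0.19 ± 0.19 (SD), about the size of its spread.

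Alpha subunits best known from skeletal muscle and brain were near the floor. Scn4a (skeletal muscle) averaged 1.03 FPKM, Scn2a 0.455 and Scn3a 0.383 over all libraries, and the last 2 did not reach the mean of 0.5 FPKM that was asked of a gene to be tested. All 9 chosen genes reached it. The plot of subunit genes by level shows this drop.

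**Figure D1:**
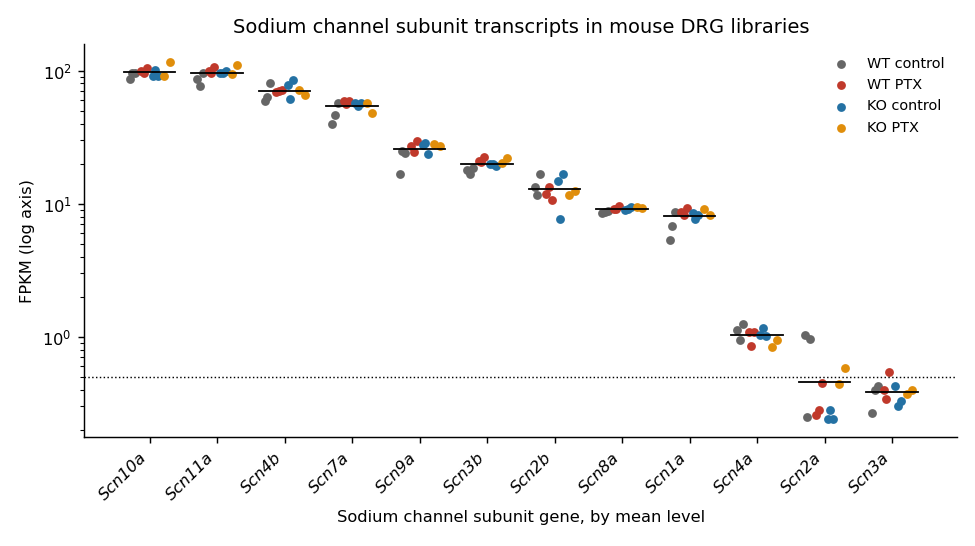
FPKM (log axis) of 12 sodium channel subunit genes, ordered by mean. Points are libraries coloured by group, black bars are means over 11 libraries, and the dotted line is the mean of 0.5 FPKM required for testing; 9 genes averaged above 8 FPKM and 3 lay near or under 1 FPKM.

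Libraries held 52735648 to 80348732 estimated counts, and the 9 genes drew from 3028 (Scn2b) to 68911 (Scn10a) of them in a library. Gpr37l1 was at 14.6 to 35.7 FPKM in WT libraries and at 0.21 to 1.15 in KO libraries. The fitted knockout change was −7.03 on the log2 scale in controls (edgeR, adjusted p = 4.52508e-05). WT control 1 stood apart from the rest, and its ribosomal-RNA-like row CT010467 reached 14803 FPKM, against 897 to 2889 elsewhere. WT controls 1 and 2 correlated least with the other libraries over the tested genes, by a small margin (median r of 0.977 and 0.980, against 0.983 to 0.988, log2(FPKM + 1) scale). KO PTX 3 had the highest sum over 12 spinal cord markers, 24.4 FPKM against 2.32 to 7.46 in the other libraries, with 7 of these markers at 0 in at least 1 library. The sum over 9 skeletal muscle markers ran from 3.75 to 707 FPKM, and none of them was at 0 in a library. The sum over 12 neuronal markers was 3137 to 3648 FPKM in WT controls and 2873 to 3283 in WT PTX. It was 3159 to 3237 in KO controls and 2950 to 3184 in KO PTX. Satellite glial markers summed to 1082 to 1518 and myelinating Schwann cell markers to 1248 to 2197 FPKM, as the DRG label requires. In such tissue RNA, fewer cells of a type and less RNA per cell cannot be told apart.

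The comparison of PTX with control in WT mice asks whether the drug altered these transcripts. None of the 9 genes passed an adjusted p of 0.05 in edgeR's quasi-likelihood test, in which 0.00663% of 15087 genes did. Of them 4 had an unadjusted p under 0.05, all higher after PTX (Scn1a, Scn3b, Scn7a and Scn11a), against 6.59% of all genes that were higher at that p and 13.5% in either direction. DESeq2, the other count test, gave 5 genes under an unadjusted p of 0.05, as it did 15.1% of all genes, and passed Scn3b alone, with 2.05% of all genes passing. The log2 fold change was above 0 for 8 of 9 genes, as it was for 48.8% of all genes. Its median was 0.22, against −0.01 over all genes tested.

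Scn3b, whose product associates with channels in small sensory neurons, was at 17.9, 16.7 and 18.4 FPKM in WT controls and at 21.02, 20.5 and 22.3 after PTX. The groups did not overlap, which held in this direction for 6.81% of all genes. Its log2 fold change was 0.26 ± 0.07 (standard error). The adjusted p was 0.222 in edgeR and 0.0342 in DESeq2. Over all alternatives this value stayed between 0.22 and 0.29, and DESeq2 was the single setting in which it passed.

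Scn11a was at 86.8, 76.4 and 95.7 FPKM in WT controls and at 99.7, 95.0 and 107 after PTX. WT control 3 reached above the lowest PTX library, so the groups overlapped slightly. The log2 fold change was 0.22 ± 0.07 (adjusted p = 0.288, edgeR). Scn10a, its neighbour and the other resistant channel, was at 87.0, 95.5 and 96.2 FPKM against 99.2, 95.2 and 105, a log2 difference of 0.10 ± 0.09 (adjusted p = 0.634, edgeR).

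The tetrodotoxin-sensitive channels were lowest in WT control 1. Scn1a was at 5.32, 6.75 and 8.60 FPKM in WT controls and at 8.68, 8.23 and 9.33 after PTX, a log2 fold change of 0.35 ± 0.12 (adjusted p = 0.311, edgeR). Scn9a was at 16.7, 24.8 and 24.0 FPKM against 27.0, 24.5 and 29.7, with 0.31 ± 0.14 (adjusted p = 0.377, edgeR). For both genes the control values reached into the PTX range, and the spread between controls was the wider of the groups. Without WT control 1 the value was 0.21 for Scn1a and 0.15 for Scn9a. Scn8a differed least among these 3, at 8.52, 8.70 and 8.86 FPKM against 9.05, 9.14 and 9.67. Its groups did not overlap, as held in this direction for 6.81% of all genes, but the fitted log2 fold change was 0.09 ± 0.06 (adjusted p = 0.477, edgeR).

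Scn7a, the Nax gene, was at 40.0, 46.6 and 56.8 FPKM in WT controls and at 59.2, 56.1 and 59.5 after PTX. The 3 PTX libraries were close together, while WT controls 1 and 2 were the lowest of the 11 libraries. The log2 fold change was 0.29 ± 0.11 (adjusted p = 0.320, edgeR). Without WT control 1 it was 0.19. Leaving out WT controls 1 and 2, a choice made after seeing the data, left WT control 3 as the only WT control, so the standard errors then came from the spread of the other groups. The value was then 0.03 ± 0.10 for Scn7a, 0.06 ± 0.11 for Scn1a and 0.26 ± 0.09 for Scn3b.

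The other beta subunits did not share the pattern of Scn3b. Scn4b, known for the resurgent current of fast-firing neurons, was at 59.0, 63.4 and 80.1 FPKM in WT controls and at 68.9, 70.5 and 72.0 after PTX (log2 fold change 0.07 ± 0.10). Scn2b, which is disulfide-linked to its alpha partner, was at 13.4, 11.7 and 16.6 FPKM against 11.8, 13.4 and 10.7 (−0.20 ± 0.22). In both, the PTX libraries lay within or across the control range. The panels of FPKM by library show these values for all 9 genes.

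**Figure D2:**
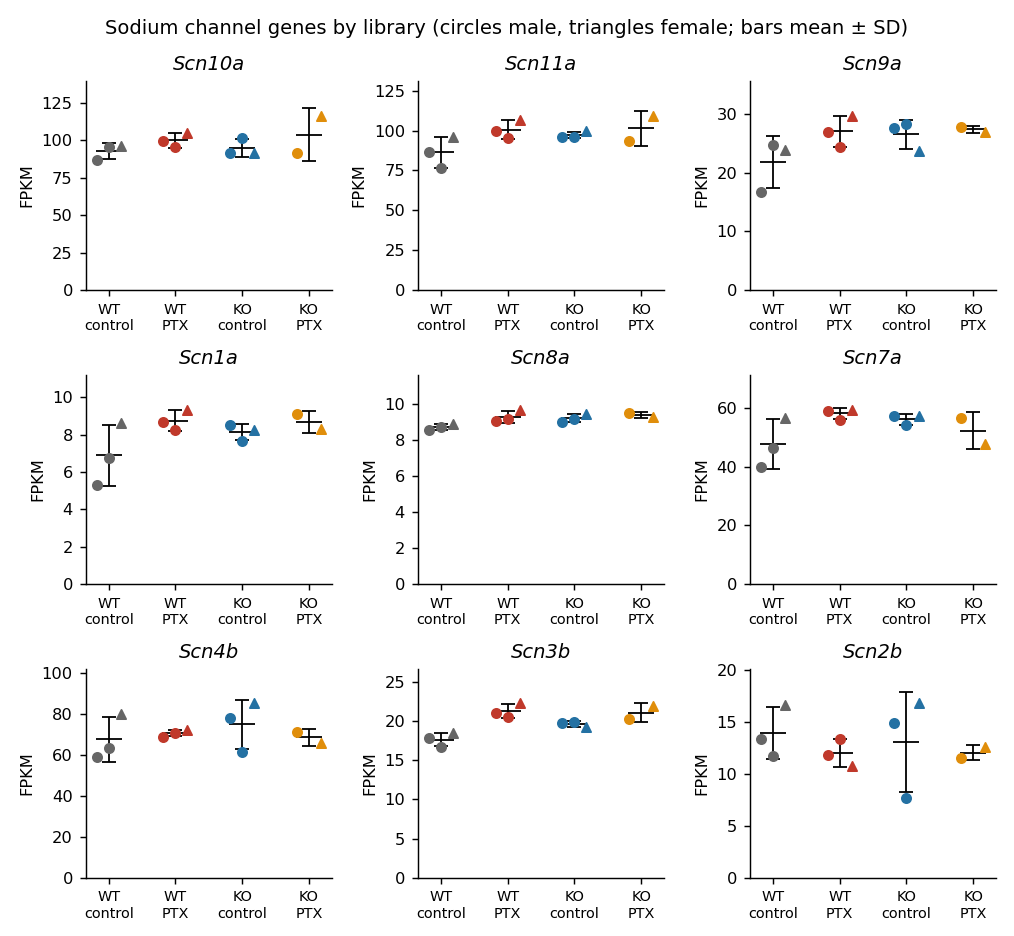
FPKM of each gene in each library by group, with the axis from 0. Circles are male and triangles female libraries, and bars give mean ± SD (n = 3, and 2 for KO PTX). Scn3b in WT lies at 16.7 to 18.4 in controls and 20.5 to 22.3 after PTX, and for Scn1a, Scn7a and Scn9a WT control 1 is the lowest of the 11 libraries.

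The PTX result rested in part on single libraries. The number of genes under an unadjusted p of 0.05 fell from 4 to 2 without WT control 1, to 1 without WT PTX 3 and to 1 without WT controls 1 and 2, where a single WT control was left. The share of all genes under that p fell too, from 13.5% to 10.1, 9.02 and 3.76%. The median log2 fold change of the 9 genes was then 0.15, 0.20 and 0.11. The part of the ribosomal-RNA-like reads of WT control 1 in the result was not tested. Markers of the neurons that carry these channels went in both directions. Over 10 nociceptor markers, which include Trpv1 and Calca, the sum was 1835 to 2365 FPKM in WT controls and 1660 to 1836 after PTX, with 1 marker higher and 4 lower at an unadjusted p under 0.05 (6.59% of all genes were higher and 6.87% lower) and a median log2 fold change of −0.11. Over 10 markers of large myelinated (A fiber) neurons the sums were 2739 to 2931 and 2867 to 3211 FPKM, with 3 markers higher, none lower and a median of 0.14. Macrophage markers were lower after PTX. The sum of 8 of them, among them Csf1r and C1qa, was 34.2 to 44.9 FPKM in WT controls and 24.1 to 29.3 after PTX. Of these 7 were lower at an unadjusted p under 0.05, with a median of −0.58, and none was at 0 in a library. In KO controls the sum was 30.3 to 33.9 FPKM, and 3 were lower than in WT controls at that p (3.58% of all genes were). Skeletal muscle markers summed to 17.8 to 660 FPKM in WT controls and 3.75 to 218 after PTX. All 9 had a log2 fold change under 0, with a median of −2.80, and 1 had an unadjusted p under 0.05. No marker of these 4 lists passed the adjusted threshold, and the part of cell makeup in the channel values was not tested.

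The comparison of KO with WT among controls asks whether these transcripts differed with loss of Gpr37l1 in the absence of PTX. It shares its WT control libraries with the PTX comparison, so the results of the 2 are not independent. None of the 9 genes passed the adjusted threshold in edgeR (0.00663% of all genes did) or in DESeq2 (0.278% did). An unadjusted p under 0.05 was met by 3 in edgeR and 5 in DESeq2, all higher in KO. In either direction it was met by 7.54% of all genes in edgeR and 8.52% in DESeq2, and 3.96% were higher at that p in edgeR. The median log2 fold change of the 9 genes was 0.16, against 0.00 over all genes, and 8 of 9 were above 0 (50.8% of all genes).

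In KO controls, Scn11a was at 96.0, 96.2 and 99.7 FPKM, above all 3 WT controls, 0.18 ± 0.07 higher on the log2 scale (adjusted p = 0.657, edgeR). Scn3b was at 19.8, 19.9 and 19.3 FPKM, also without overlap, with 0.16 ± 0.07 (adjusted p = 0.657, edgeR). Scn7a was at 57.3, 54.2 and 57.3 FPKM and overlapped WT control 3, with 0.24 ± 0.11 (adjusted p = 0.657, edgeR). These 3 were the genes under an unadjusted p of 0.05. Scn8a, at 9.01, 9.15 and 9.43 FPKM, was the third gene whose KO and WT controls did not overlap, which held in this direction for 4.55% of all genes.

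The remaining genes overlapped between genotypes. Scn9a was at 27.6, 28.3 and 23.8 FPKM in KO controls (log2 fold change 0.29 ± 0.14) and Scn1a at 8.51, 7.66 and 8.24 (0.25 ± 0.12). Scn10a was at 91.5, 102 and 91.6 FPKM (0.04 ± 0.09). Scn4b was at 78.0, 61.5 and 85.0 FPKM (0.15 ± 0.10). Scn2b spread widest relative to its mean, at 14.9, 7.64 and 16.8 FPKM (−0.10 ± 0.22), and KO control 2 was the lowest library of the series for that gene. Without WT control 1 the values were 0.13 for Scn9a, 0.11 for Scn1a and 0.14 for Scn7a, and 2 genes had an unadjusted p under 0.05, as 5.87% of all genes did. Such calls fell to 0 when WT PTX 1, WT PTX 3 or KO control 1 was left out, while the median log2 fold change of the 9 genes stayed at 0.16, 0.15 and 0.14 and the share of all genes at that p was 5.83, 6.86 and 3.70%. The WT PTX libraries enter this comparison only through the shared estimates of spread and sex. Without WT controls 1 and 2, which leaves 1 WT control, the count was 0, the median 0.08 and the share 2.45%. The count fell to 1 without WT control 2, WT PTX 2, KO control 2, KO PTX 2 or KO PTX 3, where the share of all genes was 9.56, 6.34, 4.77, 7.22 and 7.26%.

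In KO mice no sodium channel gene differed after PTX at an unadjusted p under 0.05 (4.32% of all genes did, and 0.00663% passed the adjusted threshold). The log2 fold changes ran from −0.14 for Scn4b to 0.10 for Scn10a, with a median of 0.03. At that unadjusted p, 1 gene was lower without KO control 2 (5.09% of all genes in either direction). With the spinal cord marker score as a covariate, 1 was higher (5.2% in either direction). Without KO PTX 2, which leaves 1 KO PTX library, the median was −0.009. Of the sodium channel genes, 3 were then above 0, against 6 with both KO PTX libraries. A median can hide moves in opposite directions, and a single library has no spread of its own. Whether the result in KO holds without KO PTX 2 is therefore not decided by that fit. The KO PTX group held 2 libraries. Scn10a was at 91.2 and 116 FPKM, Scn11a at 93.6 and 109, and Scn7a at 56.7 and 47.8. In these 3 the libraries lay on opposite sides of the KO control mean, KO PTX 3 being high for Scn10a and Scn11a and low for Scn7a. That library also held the highest spinal cord marker sum, and the part of that tissue in its values was not tested. Scn3b, at 20.3 and 21.9 FPKM, lay above all KO controls, as 11.3% of all genes did, with a log2 fold change of 0.09 ± 0.07.

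The libraries of the remaining genes in KO PTX mice stayed within or close to the KO controls. Scn1a was at 9.10 and 8.27 FPKM, Scn8a at 9.49 and 9.27, and Scn9a at 27.8 and 27.0. Scn4b was at 71.3 and 65.6 FPKM and Scn2b at 11.6 and 12.6. The log2 fold changes of these 5 in KO were all smaller in size than 0.15.

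Between genotypes after PTX no sodium channel gene had an unadjusted p under 0.05 (3.55% of all genes did) or passed the adjusted threshold (0.0133% did). The values ran from −0.16 for Scn7a to 0.04 for Scn10a, with a median of −0.020 and 3 genes above 0. With the spinal cord marker score as a covariate the median was 0.13 and 6 genes were above 0. None was then under that unadjusted p (3.29% of all genes were). Without KO PTX 2, which leaves 1 KO PTX library, the median was −0.026. Whether PTX acted differently in the 2 genotypes was tested directly as the difference of the PTX effects. Scn7a had the largest difference, −0.41 ± 0.16 on the log2 scale (unadjusted p = 0.0297, adjusted p = 0.724, edgeR). It was −0.23 without KO PTX 3, −0.13 without WT controls 1 and 2, which leaves 1 WT control, and −0.08 with the spinal cord marker score as a covariate. That covariate moved Scn11a from −0.19 to −0.32 (unadjusted p = 0.0405, adjusted p = 1.00, edgeR) and Scn3b from −0.18 to −0.29 (unadjusted p = 0.0343, adjusted p = 1.00, edgeR). With that covariate, 2.82% of all genes were under an unadjusted p of 0.05 in either direction. No sodium channel gene passed the adjusted threshold, as 0.00663% of all genes did. At the unadjusted p, 3.18% of all genes were lower by this measure. Without that covariate, Scn7a was the only sodium channel gene under it (6.3% of all genes in either direction). This count was 3 without KO control 3 (6.78%) and 2 without WT control 3 (11.4%), all lower. It was 0 without WT PTX 1 (3.58%), WT PTX 3 (6.4%) or KO control 1 (4.06%). It stayed at 1 without WT control 1, WT control 2, WT PTX 2 or KO control 2. Without KO PTX 2 or KO PTX 3, leaving 1 KO PTX library, the median was −0.12 and −0.15, against −0.19. The difference for Scn1a was −0.28 ± 0.19, for Scn9a −0.28 ± 0.21 and for Scn10a 0.00 ± 0.14. The plot of fold changes shows the 4 simple comparisons side by side.

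**Figure D3:**
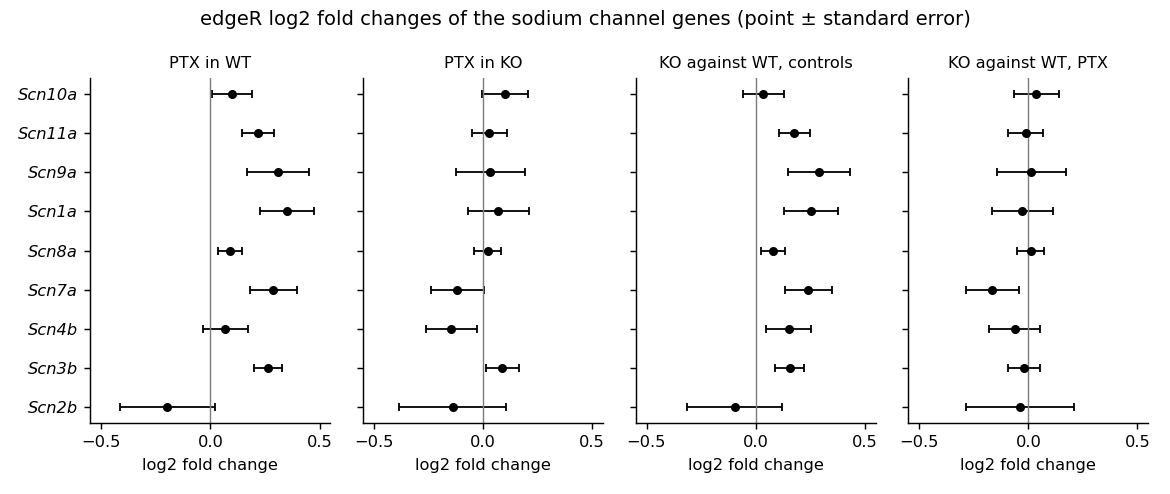
Fitted log2 fold changes of the 9 genes (points) with standard errors (bars) in 4 comparisons, from edgeR. In PTX in WT and KO against WT among controls, which share the WT control libraries, 8 of 9 points lie above 0; after PTX or within KO the points lie between −0.16 and 0.10.

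Averaged over genotypes, PTX gave Scn3b 0.18 ± 0.05 (unadjusted p = 0.00487, adjusted p = 0.441, edgeR), and Scn1a and Scn11a were the other genes under an unadjusted p of 0.05, against 3.83% of all genes higher at that p. The knockout averaged over treatments gave none (3.75% of all genes). With the spinal cord marker score as a covariate it gave 3 (6.13% of all genes in either direction). It gave 1 with the neuronal marker score (6.67%) and 1 without WT control 3 (5.56%), all of these being higher. No sodium channel gene passed the adjusted threshold in either average, in each of which 0.0133% of all genes did. Females and males differed by less than 0.23 on the log2 scale for each gene. All 9 were above 0 in females (51.4% of all genes), and Scn11a alone had an unadjusted p under 0.05 (0.14 ± 0.06, adjusted p = 0.547, edgeR), against 8.44% of all genes in either direction. The adjusted threshold was passed by 0.0398% of all genes in that comparison.

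Transcript length moved with these differences. Over all tested genes the median log2 fold change for PTX in WT was −0.09 for summed exon lengths under 2 kb and 0.08 for 7 kb and over. Of the genes 7 kb and over, 13.1% were higher at an unadjusted p under 0.05, against 2.12% of those under 2 kb. In the knockout comparison of controls the same medians were −0.08 and 0.06, and in the comparisons that do not use WT controls they stayed between −0.03 and 0.01. WT control 1 was the library in which long transcripts were low, with a median deviation from the gene mean of −0.14 at 7 kb and over and 0.14 under 2 kb, on the log2(FPKM + 1) scale. In the other libraries the value at 7 kb and over lay between −0.01 and 0.03.

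The channel genes are long. Scn8a has 15.8 kb of summed exons, Scn9a 12.8, Scn1a 11.2, Scn10a 7.97 and Scn7a 7.34. The remaining genes fall between 4 and 7 kb, with Scn11a at 5.93, Scn3b at 5.46, Scn4b at 4.98 and Scn2b at 4.66 kb. The genes under an unadjusted p of 0.05 for PTX in WT were 2 of 5 in the longest class and 2 of 4 in the class from 4 to 7 kb, where 7.28% of all genes were higher at that p. The part of transcript length in the differences was not tested.

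**Figure D4:**
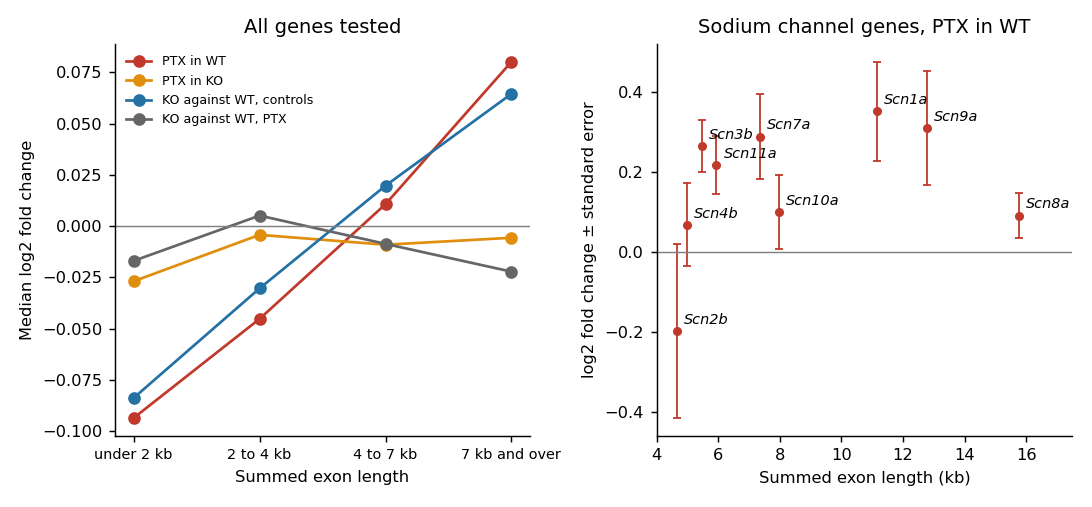
Left, the median log2 fold change of all tested genes in 4 classes of summed exon length, for 4 comparisons; right, the log2 fold change (± standard error) of the 9 genes for PTX in WT against their own summed exon length in kb. The medians run from −0.09 to 0.08 with length in PTX in WT, and the 9 genes span 4.66 to 15.8 kb.

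A share formed within a library does not depend on its depth. The resistant channels Scn10a and Scn11a together made up most of the FPKM of the 5 neuronal alpha subunits (Scn1a, Scn8a, Scn9a, Scn10a and Scn11a). In WT controls their share was 85.1, 81.0 and 82.2%, and after PTX 81.6, 82.0 and 81.3%. In KO it was 80.6, 81.4 and 82.2% in controls and 79.9 and 83.5% after PTX. The mean was 81.7 ± 1.29% over 5 PTX libraries and 82.1 ± 1.59% over 6 controls (SD), a difference of −0.42 points (exact two-sided permutation test, p = 0.658). It was 0.17 points without WT control 1 and 0.01 without KO PTX 2. KO and WT differed by −0.68 points (exact permutation p = 0.472), and by −0.11 points without WT control 1.

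Within that sum Scn10a took 41.3 ± 1.77%, Scn11a 40.6 ± 1.77%, Scn9a 10.8 ± 1.14%, Scn8a 3.88 ± 0.221% and Scn1a 3.41 ± 0.373% (SD, n = 11). WT control 1 had the lowest Scn9a share, 8.17%, and the lowest Scn1a share, 2.60%. The highest resistant share was in that library too.

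Scn7a was set against the same sum as a log2 ratio. It was −2.35, −2.19 and −2.04 in WT controls, −2.04, −2.05 and −2.13 in WT PTX, −2.02, −2.17 and −2.02 in KO controls, and −2.03 and −2.50 in KO PTX. PTX and control libraries differed by −0.02 (exact permutation p = 0.885) and KO and WT libraries by −0.01 (exact permutation p = 0.931). KO PTX 3 was the lowest library and WT control 1 the next.

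The 3 beta subunits, summed and set against the 5 alpha subunits, gave log2 ratios from −1.45 in KO control 2 to −0.94 in KO control 3. The mean was −1.26 ± 0.11 over PTX and −1.14 ± 0.18 over control libraries (SD), a difference of −0.12 (exact permutation p = 0.229). KO and WT differed by −0.02 (exact permutation p = 0.859). Without KO control 2 the PTX difference was −0.18 (exact permutation p = 0.0476). Adjusted over the 6 tests of these 3 quantities by the Benjamini-Hochberg method, every p was 0.931. Within 1 genotype, 3 libraries against 3 cannot go below an exact p of 0.1.

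**Figure D5:**
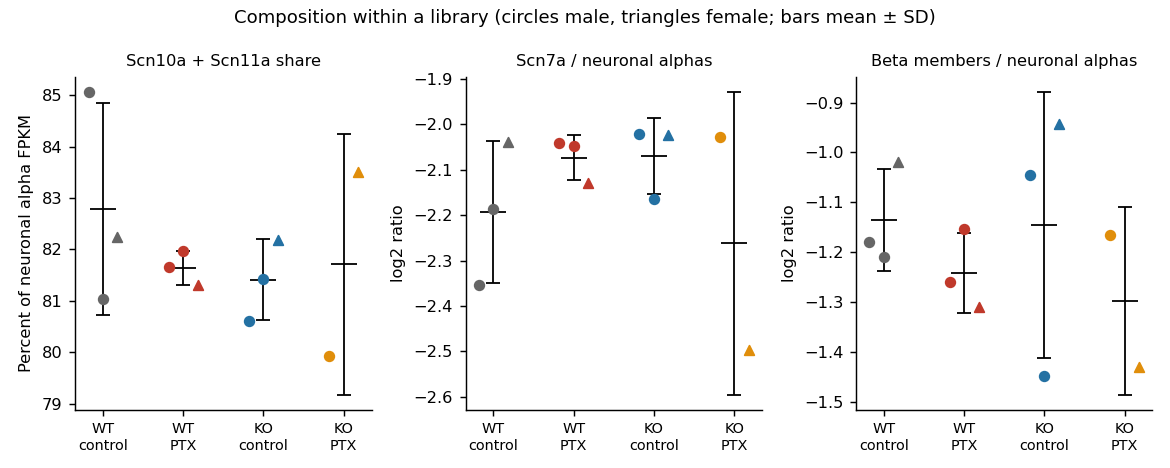
Left, the share of Scn10a plus Scn11a in the FPKM of 5 neuronal alpha subunits (percent); middle and right, log2 ratios of Scn7a and of the 3 beta subunits to the same sum. Circles are male and triangles female libraries and bars are mean ± SD (n = 3, and 2 for KO PTX); axes do not start at 0. The share lies between 79.9 and 85.1% in the 11 libraries, the highest being WT control 1.

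The low alpha subunit genes did not pass the adjusted threshold for PTX in WT either. Scn4a differed by −0.12 ± 0.16 for PTX in WT. Scn2a and Scn3a could be fitted only without the filter. Scn2a then gave −1.18 ± 0.37 for PTX in WT (adjusted p = 0.506, edgeR), at 1.03, 0.25 and 0.96 FPKM in WT controls and 0.26, 0.28 and 0.45 after PTX, and Scn3a gave 0.22 ± 0.22.

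Proteins that bind or regulate the channels were read from a list of 24 genes, of which 23 were tested. None passed the adjusted threshold in the 4 simple comparisons, in which 0.00663 to 0.0133% of all genes did. For PTX in WT, 7 were higher and 2 lower at an unadjusted p under 0.05 (6.59% and 6.87% of all genes), with a median log2 fold change of 0.08 over the list. Fgf12, an intracellular factor that binds the channel tail, was at 37.2 to 55.3 FPKM in WT controls and 58.3 to 67.7 after PTX. The groups did not overlap, as held in this direction for 6.81% of all genes. The log2 fold change was 0.51 ± 0.10 (unadjusted p = 0.000509, adjusted p = 0.203, edgeR). Fgf12 was also higher in KO controls, at 57.5 to 60.7 FPKM (0.46 ± 0.10, adjusted p = 0.657, edgeR). Its difference of PTX effects was −0.48 ± 0.15 (adjusted p = 0.724, edgeR). WT controls 1, 2 and 3 were at 37.2, 38.6 and 55.3 FPKM, and WT control 3 lay close to the KO controls. These Fgf12 differences share the WT controls, so they are not independent.

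Nedd4l, a ubiquitin ligase that lowers surface channels, gave 0.38 ± 0.10 for PTX in WT (adjusted p = 0.238, edgeR), and the kinase gene Prkca 0.34 ± 0.09 (adjusted p = 0.238, edgeR). Fgf13, at 143 ± 20.2 FPKM in WT controls (SD, n = 3) the most abundant Fgf gene named, gave 0.21 ± 0.08, and Ank3, the anchor of the axon initial segment, 0.24 ± 0.11. Fgf14, at 0.34 to 0.61 FPKM, was not tested.

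A list of 12 sodium pump, exchanger and leak channel genes was tested whole, and none passed the adjusted threshold in those comparisons. For PTX in WT, 2 were higher at an unadjusted p under 0.05, as 6.59% of all genes were. These were Unc80, an auxiliary subunit of the sodium leak channel (0.45 ± 0.11, adjusted p = 0.222, edgeR), and Nalcn, that channel's pore gene (0.28 ± 0.10, adjusted p = 0.298, edgeR). Slc8a2, a sodium-calcium exchanger, was at 1.67 and 1.68 FPKM in KO PTX, against 0.87 to 1.03 in KO controls (0.78 ± 0.27, adjusted p = 0.999, edgeR). These groups did not overlap, as held in this direction for 11.3% of all genes. In WT the level was low too, at 0.76 to 1.17 FPKM in controls and 0.74 to 1.40 after PTX.

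Across the 11 libraries the channel genes varied together in part. Of 36 pairs, 31 had a Pearson correlation above 0 on the log2(FPKM + 1) scale and 20 were above 0.5, with a median of 0.54. The closest pairs were Scn1a with Scn7a (0.91) and Scn11a with Scn3b (0.90). Of the 5 pairs under 0, 4 held Scn2b, down to −0.40 with Scn9a, and the other was Scn10a with Scn4b (−0.17). With Scn4b, Scn2b stood at 0.68. These values are a description, since the libraries share groups and the low values of WT control 1. The same counts over pairs of other genes were not computed, so they are not shown to be particular to this family.

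The genes most like each channel over these libraries, of all 15087, included no sodium channel gene. For Scn11a they were Grik1 (0.99), Prkcq (0.97) and Ston2 (0.96), and for Scn1a Asah2 (0.99), Fcho2 (0.98) and Oxr1 (0.98). For Scn9a they were Cpped1, Mbnl2 and Rapgef4 (all 0.98), and for Scn7a Serpini1, Glrb and Prkar2b (all 0.97). For Scn8a they were Gm11451 (0.93), Jam2 (0.92) and Cir1 (0.92). Scn10a was nearest to the mitochondrial genes mt-Nd4 (0.95), mt-Tl1 (0.94) and mt-Co1 (0.93).

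The beta subunits had other neighbours again. For Scn3b they were Omg (0.97), Nxpe2 (0.96) and Ckap5 (0.95). Scn4b was nearest to Pou4f1 (0.93), Marf1 (0.92) and Lrig2 (0.92), and Scn2b to Mgat1 (0.94), Ecrg4 (0.92) and Col8a2 (0.91).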

How the data were processed

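Total RNA from mouse DRG was made into poly(A) stranded libraries. Per the labels, the authors used cutadapt, FastQC, HISAT2 and StringTie with mm10; versions and strand settings are not given in the sources used here. They deposited FPKM and estimated counts for 36670 genes in 11 libraries. The deposited counts are estimates: in WT control 1, 1369 genes held a count of 4, against 573 at 3 and 334 at 5.

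The 15087 genes averaging 0.5 FPKM or more were fitted on counts with edgeR 4.0.16 (TMM, quasi-likelihood, R 4.3.3), in 4 groups with sex as a covariate over all 11 libraries. p-values were adjusted by Benjamini-Hochberg over all genes, and 0.05 was the threshold. DESeq2 1.42.0 and limma 3.58.1 (pseudocounts 1 and 0.1) were alternatives. The edgeR script was tested on simulated data with 200 of 15087 genes changed. For PTX in WT it recovered 0% of 1.2-fold, 31% of 1.5-fold and 74.5% of 2-fold changes. For KO against WT among controls it recovered 0, 35 and 77%. Unchanged genes called were 0, 1 and 12 for PTX in WT and 0, 0 and 4 for KO against WT. The simulated data held no outlying library such as WT control 1 and no effect of transcript length. Within-library ratios used FPKM and exact permutation tests (Python 3.11.15). Coding stretches and exon lengths came from GENCODE M21 (GRCm38), where 36532 identifiers matched, and Scn1a and Scn9a ends differ slightly. Replicates differed by more than counting noise.

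The 9 genes and all gene lists were chosen with earlier results of these data known. Text names all 9 genes and other subunit genes in the table. It also names fixed binding partners (Fgf12, Fgf13, Fgf14, Ank3 and Nedd4l), up to 3 genes with the smallest p in each list and the 3 most correlated genes of each channel. Some genes that this rule names, and 1 coding stretch, are not reported here.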

Additional observations from a re-analysis of the deposited data

How the results depend on the processing

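No sodium channel gene passed the adjusted threshold in any of the 8 comparisons in edgeR or limma, with or without sex, under other filters, scalings or marker covariates, or with any library left out. With DESeq2 the number passing for PTX in WT was 1 (Scn3b). DESeq2 passed 309 genes of all in that comparison and edgeR 1; for KO against WT among controls the counts were 42 and 1. Of 1818 fold changes under the alternatives, 117 changed sign, 90 of them with both values within their standard error; the other 27 follow, and the cause was not tested. With the spinal cord score as a covariate, PTX in KO was 0.23 for Scn7a, 0.18 for Scn4b and −0.036 for Scn3b. KO against WT after PTX was then −0.16 for Scn10a, 0.13 for Scn7a, 0.21 for Scn4b and 0.28 for Scn1a. The difference of PTX effects was −0.21 for Scn10a, 0.093 for Scn4b and 0.053 for Scn1a, and PTX averaged over genotypes −0.019 for Scn10a and 0.13 for Scn4b. Without WT controls 1 and 2 (chosen after seeing the data, and leaving 1 WT control whose spread is assumed from the other groups), KO against WT among controls was −0.018 for Scn7a, −0.024 for Scn4b and −0.043 for Scn1a. The difference of PTX effects was then 0.033 for Scn1a, PTX averaged −0.035 for Scn7a, and KO averaged −0.084 for Scn7a and −0.027 for Scn1a. Without WT control 1 and KO PTX 3, also chosen after seeing the data, Scn10a was −0.13 for KO against WT after PTX and −0.069 for KO averaged. Leaving out 1 library at a time gave ranges of −0.32 to 0.0093 for Scn4b in PTX in KO, −0.28 to 0.15 for Scn2b in KO against WT among controls and −0.13 to 0.22 for Scn10a after PTX. They were −0.37 to 0.0081 for Scn7a after PTX, −0.15 to 0.19 for the Scn10a difference of PTX effects and −0.019 to 0.17 for Scn7a in PTX averaged. For the within-library quantities, male libraries alone gave PTX differences of 0.14 for the Scn7a ratio and 0.028 for the beta ratio, and 0.087 for KO against WT in the Scn7a ratio. Leaving out 1 library gave PTX differences of −0.885 to 0.17 points for the resistant share, −0.062 to 0.070 for the Scn7a ratio and −0.18 to −0.081 for the beta ratio. KO differences ran from −1.17 (without KO PTX 3) to −0.11 points (without WT control 1) for the resistant share, which was −1.78 in male libraries alone, from −0.058 to 0.074 for the Scn7a ratio and −0.084 to 0.042 for the beta ratio. Over all groups the replicate numbers did not meet the bar for pairing (every correlation over 0.1): same-numbered libraries correlated by 0.08 on average (−0.15 to 0.25, 7 of 15 pairs over 0.1), and libraries of different number by −0.04 (4 of 30). Between WT and KO controls all 3 same-numbered pairs were over 0.1 (0.11, 0.12 and 0.23), and with the block 2 sodium channel genes in place of 3 had an unadjusted p under 0.05 in that comparison (7.03% of all genes), none passing the adjusted threshold. With the replicate number as a block in place of sex, 0 sodium channel genes passed and 5 had an unadjusted p under 0.05 for PTX in WT (12.9% of all genes), and the exact p of the beta ratio for PTX was 0.241. With 2 KO PTX libraries, leaving one out assumes that the other varies like the remaining groups.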
